A study of Gallus gallus with 6 samples.

Results

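The genes described here are 9 transcription factors of blood vessel endothelium and of the blood lineages that arise beside it, chosen by name out of the 21062 genes with a normalized count. They fall into 3 groups of 3 genes: the SOX F factors SOX7, SOX17 and SOX18, the ETS factors ERG, FLI1 and ETS1, and the haemogenic factors TAL1, LMO2 and GATA2. A gene symbol in the tables matched 8 of them. The SOX7 row (ENSGALG00000041296) carried no symbol and was matched through the NCBI gene ID in its description. All 9 passed the filter on low values.

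RNA sequencing was performed on wild-type chick wing bud explants, in which the posterior part of the bud was dissected at Hamburger-Hamilton stage 20, with its apical ectodermal ridge, and grown in growth factor reduced Matrigel. The culture medium, CMRL, contained fetal bovine serum. SU5402, a small molecule that the authors used as an Fgf receptor inhibitor, was added at 5 µM at the start of culture in 3 libraries. A further 3 libraries received only DMSO, the solvent. Whether SU5402 also acted on receptors other than those for Fgf was not tested. All explants were collected at 48 h, and each library pooled several explants of 1 of 3 replicate experiments. The labels call the cells mesenchyme. The mesenchymal gene PRRX1 was high (208 to 294 FPKM), but whole explants were sequenced, and RNA of endothelium, red cells and ectoderm was present in every library as well. An FPKM value is the number of fragments on a gene scaled by transcript length and by sequencing depth. The deposited FPKM values use the same scaling between libraries as the normalized counts below, so they are no separate check on depth.

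SOX F factors are HMG-box proteins that are needed, with overlapping roles, for vessel formation and for arterial and lymphatic identity in the mouse. ETS factors bind sites found in the enhancers of nearly all endothelial genes, and ERG and FLI1 maintain endothelial identity once it is set. TAL1, a basic helix-loop-helix protein, LMO2, a LIM-only bridging protein, and GATA2, a zinc finger protein, assemble into a shared complex on DNA in blood progenitors, and each is also expressed in endothelium.

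Between 25849833 and 44261768 reads were counted on genes per library. The first principal component took up 67.2% of the variance of the 6 libraries. Replicate libraries varied 8.58 to 14.2 times more than sampling of reads allows, so none was a copy of another. Values below are normalized counts, in which the reads on a gene are divided by a size factor of the library, unless FPKM is named.

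The SOX F genes fell by 5.93-fold to 25.4-fold, the ETS genes fell by 1.71-fold to 1.83-fold, and within the haemogenic group LMO2 fell by 2.67-fold while GATA2 rose 2.19-fold and TAL1 rose 1.57-fold. Past an adjusted p of 0.05 and a 2-fold change, 4 of the 9 genes were lower with SU5402 (SOX7, SOX17, SOX18 and LMO2), beside 741 of the 16324 genes tested (4.54%), and 1 was higher (GATA2), beside 1022 genes (6.26%). By the adjusted p alone, 7 were lower, beside 16.0% of all genes, and 2 were higher, beside 14.4%. The 9 genes were chosen with earlier results of these data known, so these shares are a reference and not a test of the set. The SU5402 and DMSO libraries did not overlap in any of the 9 genes. Over all genes tested, every SU5402 library lay below every DMSO library in 25.6% and above in 24.2%, so such a lack of overlap was common in these libraries. These are bulk samples, in which fewer cells of a type and less RNA per cell cannot be told apart.

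**Figure D1:**
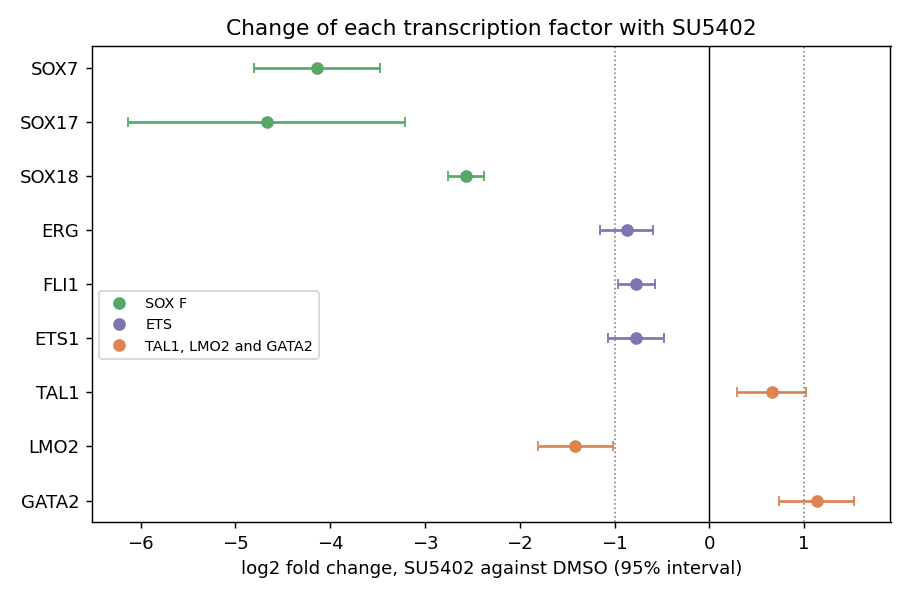
Log2 fold change of each gene with SU5402 against DMSO (horizontal axis, 3 libraries per treatment), with points for the limma estimate, bars for its 95% interval and colours for the 3 groups. The dotted lines mark a 2-fold change. The SOX F genes lie between -4.67 and -2.57, the ETS genes between -0.87 and -0.77, and the haemogenic genes on both sides of 0.

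SOX18 (ENSGALG00000034118, chromosome 20, 9380605 to 9384135, plus strand, GRCg6a) was the SOX F gene with the highest level. It is expressed in early endothelium and directs lymphatic fate in the mouse. Its normalized counts were 1441, 1387 and 1345 with DMSO and 228, 221 and 253 with SU5402. Both treatments were tight and far apart, with a mean of 1391 ± 48.0 (SD, n = 3) against 234 ± 17.0 (SD, n = 3). The log2 fold change was -2.57 (SE 0.07, 95% interval -2.75 to -2.38), at a limma adjusted p of 1.1e-04.

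SOX7 (ENSGALG00000041296, chromosome 3, 106816449 to 106818809, minus strand) is the SOX F gene expressed from the earliest endothelial precursors in the mouse. It gave 685, 583 and 628 normalized counts with DMSO and 25.7, 31.5 and 52.1 with SU5402. The lowest DMSO library, 583, was far above the highest SU5402 library, 52.1. SOX7 had a log2 fold change of -4.14 (SE 0.26, interval -4.80 to -3.47, limma adjusted p = 6.1e-04), a 17.6-fold decrease.

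SOX17 (ENSGALG00000032994, chromosome 2, 110517253 to 110518918, plus strand) marks arterial and haemogenic endothelium, and also definitive endoderm. Its normalized counts were 261, 218 and 171 with DMSO and 5.60, 3.5 and 19.2 with SU5402. The SU5402 values rest on 5, 4 and 21 reads, and SU5402 replicate 3 stood above the other two. This made a log2 fold change of -4.67 (SE 0.58, interval -6.13 to -3.21, limma adjusted p = 0.0041), a 25.4-fold decrease with the widest interval of the 9 genes. Without SU5402 replicate 3 it was -5.30. The intervals of SOX7 and SOX17 overlapped, and both lay below that of SOX18.

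SU5402 replicate 3 had the highest value of the SU5402 libraries in SOX7, SOX17 and SOX18 alike. The SOX F genes also fell unequally. Per gene length, SOX7 stood at 0.635 ± 0.04 of SOX18 with DMSO (SD, n = 3) and at 0.215 ± 0.07 with SU5402, and SOX17 went from 0.157 ± 0.03 of SOX18 to 0.039 ± 0.03. The libraries of the treatments did not overlap in either ratio. In the annotation of protein domains within the tables, 33 tested genes had an HMG box. SOX17, SOX7 and SOX18 held 3 of the 4 lowest log2 fold changes among them. The other was an unnamed pseudogene (ENSGALG00000051643) that starts 2615 bases after SOX17 on the same strand, with means of 47.8 and 2.92 normalized counts and a log2 fold change of -4.51 (SE 0.95, limma adjusted p = 0.021). Of the 30 tested HMG-box genes outside SOX F, 4 fell and 1 rose past both thresholds. Besides the pseudogene, an unnamed gene on chromosome 20 (ENSGALG00000035951) fell by 1.64 and the cartilage factors SOX9 and SOX5 fell by 1.5 and 1.26 on the log2 scale, while SOX21, a factor of neural and epithelial progenitors, rose by 2.08.

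**Figure D2:**
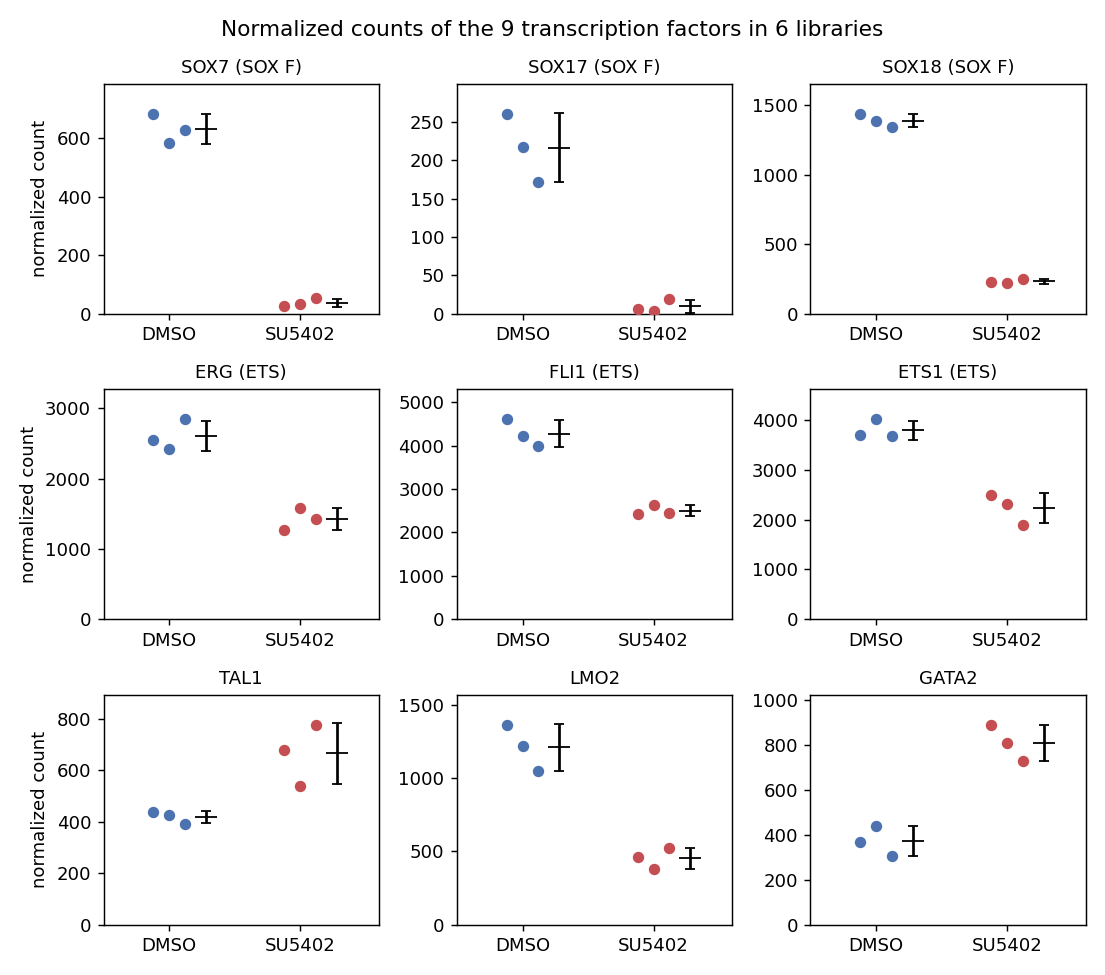
Normalized counts (vertical axes, from 0) of each gene in the 3 DMSO libraries (blue) and the 3 SU5402 libraries (red), in the order of replicates 1 to 3, with the mean and SD in black. No panel has overlap between treatments. TAL1 and GATA2 are higher with SU5402 and the other 7 genes are lower.

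The ETS genes were the highest of the 9 per gene length and moved least among those that fell. ERG (ENSGALG00000016058, chromosome 1, 108908312 to 109023131, minus strand), which keeps endothelial junctions and quiescence in mammals, gave 2545, 2426 and 2845 normalized counts with DMSO and 1261, 1581 and 1428 with SU5402. All SU5402 libraries were below all DMSO libraries, but by less than 2-fold on average. ERG thus changed by -0.87 on the log2 scale (SE 0.11, interval -1.15 to -0.60, limma adjusted p = 0.0044).

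FLI1 (ENSGALG00000001161, chromosome 24, 1016857 to 1089783, plus strand), a close relative of ERG that also acts in megakaryocytes, had normalized counts of 4608, 4210 and 4000 with DMSO and 2424, 2638 and 2438 with SU5402. The treatments were separated by a gap wider than the range within either. FLI1 changed by -0.77 on the log2 scale (SE 0.08, interval -0.97 to -0.58, limma adjusted p = 0.0022).

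ETS1 (ENSGALG00000001143, chromosome 24, 907941 to 974253, minus strand) acts in angiogenesis and in delaminating neural crest. It gave 3709, 4022 and 3677 normalized counts with DMSO and 2488, 2317 and 1899 with SU5402. Again no library crossed over, and SU5402 replicate 3, the highest in the SOX F genes, was the lowest here. The log2 fold change was -0.77 (SE 0.12, interval -1.07 to -0.48, limma adjusted p = 0.0074).

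The 3 ETS genes kept their proportions. The FPKM ratio of FLI1 to ETS1 was 0.908 ± 0.08 with DMSO and 0.913 ± 0.12 with SU5402 (SD, n = 3), and that of ERG to FLI1 was 1.03 ± 0.14 and 0.953 ± 0.07, with overlapping libraries in both. ETS1 and FLI1 are neighbours that point away from each other, with 42604 bases between them. The tested gene in that gap, a long non-coding RNA (ENSGALG00000038377), had a log2 fold change of -0.79 (SE 0.10, limma adjusted p = 0.0048), close to both. The next tested gene beyond FLI1, the potassium channel gene KCNJ5, fell by 1.25 on the log2 scale (limma adjusted p = 8.7e-04). ERG has the ETS gene ETS2 as its next tested neighbour, 108322 bases away, and ETS2 fell by 1.01 (limma adjusted p = 0.0019). A long non-coding RNA (ENSGALG00000047222) 22474 bases after SOX18 fell by 1.84 (limma adjusted p = 0.013). The nearest tested genes on the other sides did not pass both thresholds: MSRA and PINX1 around SOX7, MRPL15 before SOX17, TCEA2 before SOX18, KCNJ15 before ERG, a long non-coding RNA (ENSGALG00000053466) before ETS1, STIL after TAL1, FBXO3 and CAPRIN1 around LMO2, and RPN1 and EEFSEC around GATA2.

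LMO2 was the haemogenic gene that fell. LMO2 (ENSGALG00000029892, chromosome 5, 18658103 to 18665579, minus strand) gave 1367, 1218 and 1049 normalized counts with DMSO and 459, 380 and 524 with SU5402. The lowest DMSO library, 1049, was well above the highest SU5402 library, 524. LMO2 changed by -1.42 on the log2 scale (SE 0.16, interval -1.81 to -1.02, limma adjusted p = 0.0029). The interval ends close to a 2-fold change, and limma's test against a 2-fold change gave an adjusted p of 0.37.

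GATA2 (ENSGALG00000005909, chromosome 12, 9596109 to 9612130, plus strand), which is needed for blood stem and progenitor cells in the mouse and is also expressed in mast cells, neurons and surface ectoderm, moved the other way. Its normalized counts were 369, 440 and 304 with DMSO and 889, 806 and 728 with SU5402. Every SU5402 library was above every DMSO library. The log2 fold change was 1.13 (SE 0.16, interval 0.74 to 1.53, limma adjusted p = 0.0058). Without DMSO replicate 3, the lowest library, it was 0.996, just under 2-fold (limma adjusted p = 0.012).

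TAL1 (ENSGALG00000023296, chromosome 8, 22260965 to 22269319, minus strand), needed for the onset of blood formation in the mouse, had normalized counts of 437, 424 and 393 with DMSO and 680, 539 and 777 with SU5402. The DMSO libraries lay close together and the SU5402 libraries were spread out above them. The log2 fold change was 0.66 (SE 0.15, interval 0.29 to 1.02, limma adjusted p = 0.025). TAL1 passed the adjusted p but not the 2-fold threshold. The limma adjusted p was 0.057, 0.068 and 0.075 without DMSO replicates 1, 2 and 3 and 0.073 without SU5402 replicate 1. The log2 fold change without them stayed at 0.61 to 0.69. Leaving out 1 library also lowers the number of genes past the adjusted p, from 4958 to between 3362 and 3808. PDZK1IP1, a small membrane protein gene 9506 bases from TAL1 that is co-expressed with it in mammalian blood cells, rose from a mean of 18.7 to 87.6 normalized counts (log2 fold change 2.43, SE 0.65, limma adjusted p = 0.042), with 5 reads in its lowest library.

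The proportions within the TAL1, LMO2 and GATA2 group thus changed. LMO2 was 7.62, 6.996 and 6.51 times TAL1 in FPKM in the DMSO libraries and 1.64, 1.72 and 1.64 times with SU5402. Against GATA2 it was 6.64, 4.98 and 6.20 times with DMSO and 0.927, 0.846 and 1.29 times with SU5402. In both ratios the treatments were far apart, while the ratio of GATA2 to TAL1, 1.2 ± 0.18 with DMSO and 1.69 ± 0.39 with SU5402 (SD, n = 3), overlapped between them.

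The contrast of the groups was read from the mean of log2(normalized count + 1) over the 3 genes of each group in each library, as a description with no test. The SOX F mean was 9.32, 9.13 and 9.04 with DMSO and 5.10, 5.00 and 6.02 with SU5402, a difference of -3.79. For ETS the mean was 11.77 ± 0.01 with DMSO and 10.96 ± 0.09 with SU5402 (SD, n = 3), a difference of -0.81. The haemogenic mean was 9.24, 9.26 and 8.97 with DMSO and 9.35, 9.10 and 9.38 with SU5402, a difference of 0.12 with overlapping libraries, since its genes moved in opposite directions. SOX F minus ETS went from -2.60 ± 0.13 to -5.59 ± 0.64, and ETS minus the haemogenic mean from 2.61 ± 0.16 to 1.68 ± 0.24, and neither overlapped between treatments.

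Order by level changed accordingly. With DMSO, ETS1 (38.1 ± 1.91 FPKM), ERG (35.3 ± 2.93) and FLI1 (34.5 ± 2.5) led with overlapping libraries (SD, n = 3). SOX18 (26.1 ± 0.90), LMO2 (21.1 ± 2.77) and SOX7 (16.6 ± 1.34) followed, each apart from its neighbours in the order. SOX17 (4.12 ± 0.85), GATA2 (3.61 ± 0.66) and TAL1 (2.99 ± 0.16) came last, each overlapping with the next.

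With SU5402, ETS1 (22.4 ± 3.04 FPKM), FLI1 (20.2 ± 0.97) and ERG (19.3 ± 2.17) still led and overlapped. LMO2 (7.93 ± 1.26) and GATA2 (7.85 ± 0.78) came next and could not be separated, and neither could TAL1 (4.77 ± 0.86) and SOX18 (4.40 ± 0.32). SOX7 (0.957 ± 0.36) and SOX17 (0.179 ± 0.16) were lowest. SOX18 had moved from above LMO2 to below GATA2, with no overlap in either case.

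**Figure D3:**
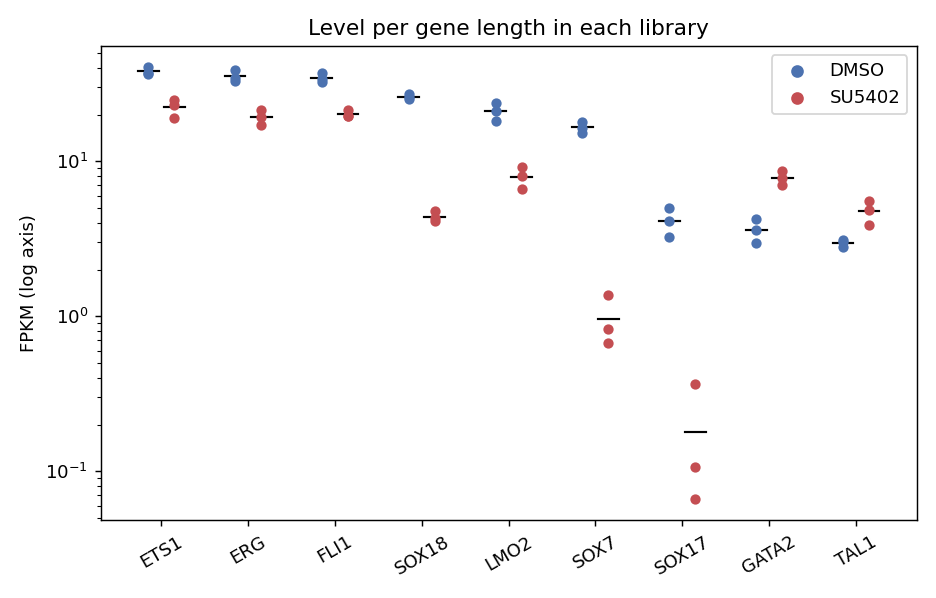
FPKM of each gene (logarithmic vertical axis) in the DMSO (blue) and SU5402 (red) libraries, ordered by the DMSO mean, with 1 point per library and a black line at the mean of 3 libraries. The ETS genes stay highest, between 17.1 and 24.9 FPKM with SU5402, while SOX17 drops to between 0.067 and 0.365.

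The same tissue was read with other factors of the endothelium. Of 11 further endothelial transcription factors tested, 3 fell and 1 rose past both thresholds, and their median log2 fold change was -0.54 beside 0.01 over all genes tested. HEY1, a target of Notch signalling in arteries, fell from 57.6 to 60.9 FPKM with DMSO to 23.0 to 24.2 with SU5402 (log2 fold change -1.33, SE 0.06, limma adjusted p = 2.4e-04). FOXF1 and HEY2 fell further, with values of -2.515 (SE 0.53, limma adjusted p = 0.021) and -2.22 (SE 0.49, limma adjusted p = 0.024). NFATC1, the factor of endocardial and valve endothelium, rose (1.08, SE 0.17, limma adjusted p = 0.0077). NR2F2, which sets venous identity and is also expressed in limb mesenchyme, passed the adjusted p with 0.90 (SE 0.09, limma adjusted p = 0.0018), short of 2-fold. SNAI1, a repressor of epithelial genes that mesenchyme also uses, had a value of -0.68 (SE 0.11, limma adjusted p = 0.0080).

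Of 14 other ETS genes tested, 4 fell and 2 rose past both thresholds, with a median log2 fold change of -0.47. This list leaves out the ETS factor SPI1, counted below with macrophage genes, which rose by 1.89. The annotation of protein domains used for the HMG box gives 14 tested ETS genes outside the members. These include SPI1 but not ETV1, ETV4 or ETV5. Of them, 1 fell and 3 rose past both thresholds, with a median of -0.37. ETV4 and ETV5, which Fgf signalling is known to induce in the limb, fell by 2.70 and 1.79 on the log2 scale (limma adjusted p = 1.4e-04 and 2.4e-04). ETV1 of the same subfamily fell by 1.63 (limma adjusted p = 8.3e-04). ETV4 went from 31.1 to 36.4 FPKM with DMSO to 4.85 to 5.58 with SU5402. ELK3, an ETS repressor expressed in endothelium, had a value of -0.99 (SE 0.07, limma adjusted p = 8.2e-04), just short of 2-fold, and ELF2, a broadly expressed member, -0.48 (SE 0.07, limma adjusted p = 0.0057). ERG, FLI1 and ETS1 lay between these.

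Of 14 tested partners of TAL1 and other haemogenic factors, none fell and 4 rose past both thresholds, with a median log2 fold change of 0.52. CBFA2T3, a corepressor that joins the TAL1 complex, rose from 6.68 to 8.18 FPKM with DMSO to 16.1 to 17.5 with SU5402 (log2 fold change 1.23, SE 0.10, limma adjusted p = 0.0011). LDB1, the scaffold that LMO2 binds in the complex, had a value of -0.42 (SE 0.06, limma adjusted p = 0.0052), and the E-protein TCF12 a value of -0.14 (limma adjusted p = 0.22). MECOM, a zinc finger factor of blood stem cells that limb mesenchyme also expresses, had -0.98 (SE 0.06, limma adjusted p = 5.9e-04), and MEIS1, a homeobox factor of stem cells and of the proximal limb, 0.56 (SE 0.06, limma adjusted p = 0.0030). Which tissues of the explant expressed these genes was not tested.

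Markers of endothelium moved too. Which cells of the explant expressed the 9 genes was not tested. Of 17 tested genes of the endothelial surface and junctions, 13 fell past both thresholds and none rose, with a median log2 fold change of -3.02, and their summed FPKM was 335 to 357 with DMSO and 77.1 to 81.7 with SU5402. CDH5, the cadherin of endothelial junctions, gave 50.9, 51.2 and 52.6 FPKM with DMSO and 0.279, 0.316 and 0.222 with SU5402. That is a change of -7.54 on the log2 scale (SE 0.13, limma adjusted p = 3.1e-05). On the log2 scale KDR, the main receptor for VEGF, fell by 4.0, PLVAP of fenestrated endothelium fell by 3.02 and EGFL7, a secreted endothelial factor, fell by 3.24. PECAM1, an adhesion molecule of endothelium and of some blood cells, went from 38.5 ± 0.95 to 21.8 ± 1.49 FPKM (SD, n = 3). Its value of -0.82 (SE 0.07, limma adjusted p = 0.0014) lies among those of ERG, FLI1 and ETS1.

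Set against CDH5, each of the 9 genes was higher with SU5402 than with DMSO in every library. CDH5 had the lowest log2 fold change of the 17 endothelial surface genes, -7.54, and any gene that fell less rises against it. The choice of CDH5 thus fixed this direction. The SOX F genes and LMO2 fell by more than PECAM1 (log2 fold change -0.82), so against PECAM1 they would be lower. ERG, at -0.87, also fell slightly more than PECAM1, while FLI1 and ETS1, both at -0.77, fell slightly less. ERG was 0.643 to 0.733 times CDH5 in FPKM with DMSO and 61.2 to 87.1 times with SU5402. SOX18 was 0.480 to 0.532 times CDH5 with DMSO and 13.1 to 21.4 times with SU5402. SOX7, which fell 17.6-fold, went from 0.299 to 0.353 times CDH5 to between 2.42 and 6.16 times. The share of these changes that comes from the number of endothelial cells was not tested.

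Genes of blood cells were read from 3 lists, which moved differently. Of 9 tested red cell genes, 7 rose and none fell past both thresholds, with a median log2 fold change of 1.67 and a summed FPKM of 250 to 328 with DMSO and 908 to 1357 with SU5402. HBA1, an alpha-type globin, gave 49.4, 39.2 and 40.6 FPKM with DMSO and 287, 211 and 352 with SU5402 (log2 fold change 2.69, SE 0.21, limma adjusted p = 0.0010). HBM, HBZ and HBE rose by 2.60, 1.61 and 2.28 on the log2 scale, with limma adjusted p of 0.0014, 0.0022 and 0.0026. Globin genes share similar sequences, and how reads matching several of them were assigned is not given in the sources used here. The erythroid factors GATA1 and KLF1 were not analysed here.

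Of 12 tested macrophage genes, 5 rose and 1 fell past both thresholds, with a median log2 fold change of 0.93 and a summed FPKM of 24.4 to 27.2 with DMSO and 38.8 to 48.8 with SU5402. CSF1R, the receptor that macrophages need, rose by 1.21 (limma adjusted p = 0.0040), and SPI1, the ETS factor of myeloid cells, by 1.89 (limma adjusted p = 0.0054). The gene that fell was MRC1, by 1.77 (limma adjusted p = 0.0064), from a mean of 4.37 to 1.32 FPKM. By the adjusted p alone, 8 macrophage genes were higher, 1 was lower and 3 did not pass. Of 6 thrombocyte genes, 2 rose and 1 fell, with a median of -0.15 and a summed FPKM of 45.4 to 56.1 and 28.01 to 31.3. THBS1 and ITGB3 made up most of this sum, with means of 21.7 and 23.5 FPKM with DMSO and 16.3 and 8.74 with SU5402. GP9, a platelet receptor subunit, rose from 0.112 ± 0.01 to 0.706 ± 0.20 FPKM, ITGB3 fell by 1.43, and ITGA2B, the defining integrin of these cells, had a value of 0.08 (limma adjusted p = 0.81). F13A1 rose by 1.44 (limma adjusted p = 0.031). With DMSO, GP9 had a mean of only 4.98 normalized counts and ITGA2B a mean of 1.08 FPKM. Whether the THBS1 and ITGB3 reads came from thrombocytes was not tested. The part of blood cells in the rise of TAL1 and GATA2 was not tested.

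Ectoderm, in which GATA2 is known to be expressed, was read from a further list. All 10 tested ectoderm genes passed the adjusted p upwards and 6 of them the 2-fold threshold, with a median log2 fold change of 1.21 and a summed FPKM of 173 to 220 with DMSO and 396 to 432 with SU5402. TP63, the master factor of stratified epithelium, rose by 1.58 (SE 0.15, limma adjusted p = 0.0018), KRT18, a simple epithelial keratin, by 1.69 (SE 0.09, limma adjusted p = 4.4e-04), and CDH1, the epithelial cadherin, had a value of 0.90 (SE 0.09, limma adjusted p = 0.0021). The value of GATA2, 1.13, lies within the range of this list, 0.67 to 3.59. It lies as well within those of the red cell list, 0.15 to 2.69, and the macrophage list, -1.77 to 2.44. The range of the TAL1 partners and haemogenic factors, -0.98 to 2.90, also holds it. The ranges of the thrombocyte list, -1.43 to 2.4, the neural crest list, -2.63 to 1.18, and the other ETS factors, -2.70 to 2.81, hold it too. The highest cartilage and mesenchyme value, 1.13, equals it after rounding. The value of GATA2 (SE 0.16) differs from the highest endothelial transcription factor, NFATC1 at 1.08 (SE 0.17), by less than either SE. It is above the highest value of the endothelial surface genes, -0.44. The part of ectoderm in the rise of GATA2 was not tested.

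Of 13 cartilage and mesenchyme genes, 4 fell and 1 rose past both thresholds, with a median of -0.16 and a summed FPKM of 1059 to 1140 and 1263 to 1394. The early cartilage factor SOX9 fell from 38.2 to 48.7 FPKM to 13.3 to 15.7 (limma adjusted p = 0.0012), while PRRX1 had a value of -0.40 (limma adjusted p = 0.0083). In the other direction, the collagen genes COL1A2 and COL1A1 had values of 0.83 and 0.89 (limma adjusted p = 9.8e-04 and 0.0032), short of 2-fold. The gene that rose past both thresholds was TWIST2, by 1.13 (limma adjusted p = 0.0028). Of 6 neural crest and glial genes, in which ETS1 is also expressed, 1 fell and 1 rose, with a median of 0.26, and their summed FPKM of 275 to 340 and 72.2 to 78.1 was mostly FABP7, a lipid-binding protein of glia that fell by 2.63. SOX10, the defining factor, stood at 0.076 to 0.199 FPKM with DMSO and 0.275 to 0.505 with SU5402 (limma adjusted p = 0.10).

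**Figure D4:**
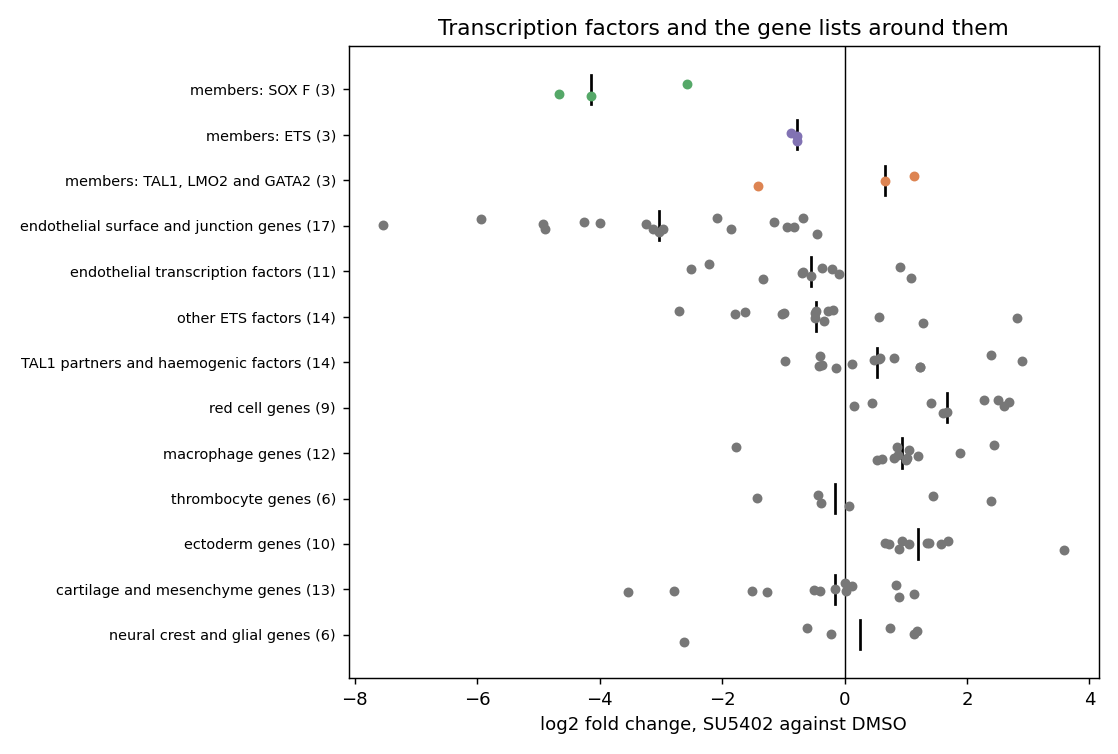
Log2 fold change with SU5402 against DMSO (horizontal axis) of the 9 transcription factors by group (coloured) and of the tested genes of 10 lists (grey), with 1 point per gene, a black line at the median and the number of genes in brackets. The SOX F median of -4.14 lies below that of the endothelial surface genes, -3.02, and the ETS median of -0.77 lies nearer to the other endothelial factors, -0.54.

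Likeness was measured as Pearson's r of log2(normalized count + 1) over the 6 libraries, against 120 genes made up of the other members and the tested list genes. As the treatments lie apart, a shared response to treatment sets most of r, which serves here as a description. SOX18 was most like EGFL7 and KDR (r = 0.9996 for both), SOX7 most like KDR (0.996), SOX17 most like FOXO1 (0.995) and LMO2 most like SOX17 (0.99). ETS1 was most like ROBO4 (0.993), ERG most like VWF (0.988) and FLI1 most like ETV4 (0.989). TAL1 was most like GP9 and HBA1 (0.961 and 0.956). GATA2 was most like CDH1 and TP63 (0.99 and 0.988). Once the mean of each treatment was taken out, most of the closest genes were others. TAL1 was then most like HEY2 and TIE1 (0.974 and 0.961), SOX18 most like MEIS1 and SOX17 (0.9897 and 0.982), SOX17 most like SOX18 and MEIS1 (0.982 and 0.976) and LMO2 most like FOXO1 and SOX18 (0.919 and 0.918). FLI1 was most like MEF2C and TWIST2 (0.942 and 0.9303), ETS1 most like EPAS1 and ROBO4 (0.964 and 0.961) and ERG most like TLR4 and VWF (0.9104 and 0.804). SOX7 was most like KDR and TWIST1 (0.939 and 0.8896), and GATA2 was again most like CDH1 and TP63 (0.924 and 0.879). These r are the highest among 120 candidates, over only 6 libraries whose treatment means were taken out. High values can arise from that selection alone, so they too are a description and show no shared source.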

How the data were processed

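Libraries were made from poly(A) RNA. The submitters' processing notes name HISAT2 (2.0.5), featureCounts (1.5.0-p3), DESeq2 (1.20.0) and the build GRCg6a. Whether counting used strand is not given in the sources used here. The only gene overlapping a member is an rRNA gene within FLI1 (107 bases, mean 0.035 FPKM). The authors deposited, per library, a signal of reads per gene divided by the DESeq2 size factor, and FPKM values, scaled in all libraries to 1 shared total. The deposited group means, fold changes and p-values of the authors' own comparison were not used. Within a tolerance of 0.01, 100% of the values were whole reads after division by 1 step per library.

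Genes that reached 10 normalized counts in 3 or more libraries (16324) were tested with limma (3.58.1, R 4.3.3) on log2(value + 1), since edgeR had been planned for raw counts only, with Benjamini-Hochberg adjustment over all of them. Fold changes are on that scale, where the added 1 makes the change of low genes smaller. For SOX17 the value was -4.67, against -4.77 with 0.5 added in place of 1. DESeq2 on recovered reads gave a smaller change, -4.50, so the fold given for SOX17 is not a lower bound. P-values measure the spread between 3 pooled libraries per treatment, which is the precision the design allows. Calls needed an adjusted p below 0.05 and a change above 2-fold. As the filter could be met by either treatment alone, a called gene could be near 0 in the other. An example is GP9, with means of 4.98 normalized counts with DMSO and 31.3 with SU5402. The test was checked on simulated data. On recovered reads, edgeR (4.0.16) called 762 genes lower and 1091 higher. Other alternatives were DESeq2 (1.42.0), other filters and pseudocounts, an intensity trend, a test against 2-fold, FPKM, a replicate block and each library left out.

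The members and lists were chosen with earlier results of these data known. Named genes are the members, up to 4 genes per list with the smallest adjusted p, the 2 with the highest mean FPKM, the first 3 of each marker list, and those most like a member. The comparisons with annotated HMG-box and ETS genes and the nearest tested gene on each side of a member were added after their values were seen. FOXF1 and MRC1 were also named after their values were seen. No reference sequence was used.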

Additional observations from a re-analysis of the deposited data

How the results depend on the processing

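The 4 lower members and the direction of all 9 were kept under a pseudocount of 0.5, edgeR with TMM or RLE factors, DESeq2, no filter, a filter of 50, an intensity trend, FPKM, the replicate block and each library left out. The exception was limma's test against a 2-fold change, which called 3 lower (SOX7, SOX17 and SOX18), 0 higher and 3 in all. The filters, the intensity trend, the replicate block and the test against a 2-fold change leave the fold changes as they were. Only the adjusted p could differ there, so they say nothing on direction. FPKM values are the normalized counts divided by gene length and a constant, so with FPKM only the pseudocount and the filter differed. Members higher numbered 0 with FPKM and a pseudocount of 1, where GATA2 was at 0.95, and 0 to 1 with libraries left out. Members past the adjusted p alone numbered 8 to 9 with libraries left out. FPKM with a pseudocount of 1 gave a SOX F difference of -2.54 in place of -3.79, since 1 FPKM exceeds the mean SU5402 level of SOX7 and SOX17. With libraries left out it was -4.12 to -3.60, for ETS -0.86 to -0.77 and for TAL1, LMO2 and GATA2 0.03 to 0.21.

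Replicate numbers are shared by the treatments, but same-numbered libraries did not deviate together (correlations 0.039, 0.003 and 0.057), and SU5402 replicate 2 correlated best with DMSO replicate 3. With the replicate block, 8 members passed the adjusted p, all but TAL1 (limma adjusted p = 0.070), 4 were lower and 1 higher. The adjusted p of TAL1 was 0.0015 with edgeR and TMM factors. Over the alternatives that test for any change, it ranged from 3.0e-05 with DESeq2 to 0.075 with limma without DMSO replicate 3. The test against a 2-fold change did not call TAL1. Depth limited SOX17, which had 4 to 21 reads with SU5402.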
